A study of Mus musculus with 6 samples.

Results

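The 10 genes described here encode core proteins of the Bcl2 family, which decide at the mitochondrion whether a stressed cell survives. They are the survival genes Bcl2, Bcl2l1 and Mcl1, the pore-forming effectors Bax and Bak1, and the BH3-only death genes Bcl2l11, Bbc3, Pmaip1, Bid and Bad. Members were selected by gene symbol, with no measured value in the rule, although they were chosen with earlier results of these data known. All 10 symbols were found, each on 1 line of a table of 22381 genes. RNA was sequenced from LSK cells, bone marrow cells that lack mature lineage markers and carry Sca-1 and c-Kit, a fraction that contains the haematopoietic stem cells and early multipotent progenitors. The mice were C57BL/6, 8 to 12 weeks old. The 6 samples comprised 3 labelled Tgif1-/-, a label for loss of the homeodomain repressor Tgif1, and 3 labelled WT. The series title concerns how Tgif1 acts on resting and self-renewing stem cells.

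For each gene the authors' table holds 1 FPKM value per group, fragments scaled for transcript length and for the mapped total of the library, and no value of a single sample. The spread between samples, the sequencing depth and the overlap of the groups are therefore unknown. Whether the 3 samples of each group were taken from different animals is not stated by the labels, and the spread behind the p-values may be technical. Errors are standard errors implied by the deposited Cuffdiff statistic, that is the log2 ratio divided by that statistic, and 95% intervals were built from them. Tgif1 itself was at 88.6 FPKM in the cells labelled Tgif1-/- and 71.5 FPKM in the cells labelled WT, with a failed test. Which part of the gene is deleted is not stated, so this whole-gene value goes against the label without settling it, and every direction is one between groups as labelled. The defining surface markers were present. Kit was at 193 FPKM in the cells labelled Tgif1-/- against 202 FPKM in those labelled WT, with a failed test. Ly6a, which encodes Sca-1, was at 120 FPKM (labelled Tgif1-/-) against 88.9 FPKM (labelled WT). For Ly6a the log2 ratio was 0.43 (implied standard error 0.22), with p = 0.0536 and q = 0.949 in the authors' deposited table (Cuffdiff test).

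In the mitochondrial death pathway, BH3-only proteins respond to damage, growth factor loss or death receptor signals and act on their relatives through a short helix, the BH3 domain. Survival proteins such as Bcl2 and Mcl1 bind that helix and hold the effectors in check. When they are overwhelmed, Bax and Bak1 open pores in the outer mitochondrial membrane, cytochrome c is released and caspases are activated. Blood stem cells depend on this balance: in mice, loss of Mcl1 is lethal to haematopoietic stem cells, and forced Bcl2 expression enlarges the stem cell pool.

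The BH3 helix is what the members have in common, and its coding stretch is shown here because it is the feature that joins them whatever their role. In the GENCODE M21 transcripts (GRCm38) the main reading frames were searched for a leucine codon, any 2 codons, an isoleucine, methionine, valine or alanine codon, a glycine, alanine or serine codon, an aspartate codon, and an aspartate, glutamate, glycine or lysine codon. The pattern was written to fit known BH3 helices, so that all 9 members searched held it, each exactly once, is no finding; it was in the main reading frame of 2.16% of 21894 genes. Pmaip1 was not searched. Each stretch has 30 bases within 1 coding exon, written 5′ to 3′ on the gene's strand. Capitals mark the codon of the conserved leucine and the adjacent codons of the small residue and the conserved aspartate.
Bcl2: accCTCcgccgggctGGGGATgacttctct
Bcl2l1: gcgCTGagagaggcaGGCGATgagtttgaa
Mcl1: accCTGcggcgcgtgGGCGACggcgtgcag
Bax: tgtCTCcggcgaattGGAGATgaactggac
Bak1: cagCTTgctctcatcGGAGATgatattaac
Bcl2l11: gagCTGcggcggatcGGAGACgagttcaac
Bbc3: cagCTGcggcggatgGCGGACgacctcaac
Bid: catCTCgcccaaataGGCGATgagatggac
Bad: gagCTCcgaaggatgAGCGATgagtttgag

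The small residue is glycine in 7 of these genes, alanine in Bbc3 and serine in Bad, as the capital codons show. Bcl2l11 and Bbc3 were the most alike of the pairs, with 24 of 30 identical bases, and Bak1 and Bcl2 the least alike, with 11 of 30. Positions in GRCm38 are chr1:106712575-106712604 on the minus strand for Bcl2, chr2:152829697-152829726 on the minus strand for Bcl2l1 and chr3:95659433-95659462 on the plus strand for Mcl1. The Bax stretch lies at chr7:45465997-45466026 and the Bak1 stretch at chr17:27022531-27022560, both on the minus strand. The BH3-only genes have theirs at chr2:128147147-128147176 (plus, Bcl2l11), chr7:16313770-16313799 (plus, Bbc3), chr6:120897289-120897318 (minus, Bid) and chr19:6950789-6950818 (plus, Bad). Splice forms matter for this helix in Bcl2l11, where 4 of 5 annotated complete reading frames contained the stretch, whereas in the other 8 genes every complete reading frame did. The FPKM values are sums over the splice forms of a gene, so long and short forms of Bcl2l1, Mcl1 or Bcl2l11 were not separated.

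None of the 9 tested members differed between the groups at a q at or under 0.05 in the authors' deposited table (Cuffdiff test), where 0.662% of the 10730 tested genes did. At a q at or under 0.1 there was again no member, against 0.923% of tested genes. The sums of survival and of death transcripts lay within a log2 difference of 0.04 between the groups, a description with no test. Summed over genes, the 3 survival members came to 123.3 FPKM in the cells labelled Tgif1-/- against 124.9 FPKM in the cells labelled WT, the 2 effectors to 213 FPKM (labelled Tgif1-/-) against 209 FPKM (labelled WT), and the 5 BH3-only members to 58.8 FPKM (labelled Tgif1-/-) against 57.3 FPKM (labelled WT). The effector sum was mostly Bak1, at 199.8 FPKM (labelled Tgif1-/-) against 193 FPKM (labelled WT), while Bax had a log2 ratio of -0.33. The BH3-only sum includes Bid, whose test failed. The survival sum was 45.4% of the sum of effectors and BH3-only genes in the cells labelled Tgif1-/- and 46.9% in those labelled WT. These are levels per length of messenger RNA in a mixed cell population, in which fewer cells of a type and less RNA per cell cannot be told apart, and they say nothing of protein.

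The levels spanned a wide range that was ordered almost identically in both groups. In both groups Bak1, Mcl1 and Bcl2 held ranks 1, 2 and 3, and Bcl2l1, Bbc3 and Pmaip1 ranks 8, 9 and 10. Bak1 alone held 50.6% of the summed FPKM of the 10 genes in the cells labelled Tgif1-/- and 49.3% in those labelled WT. Between these ends, Bad and Bid exchanged places 4 and 5, and Bcl2l11 and Bax exchanged places 6 and 7. With no value per sample, the order of such neighbours could not be set against a spread.

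**Figure D1:**
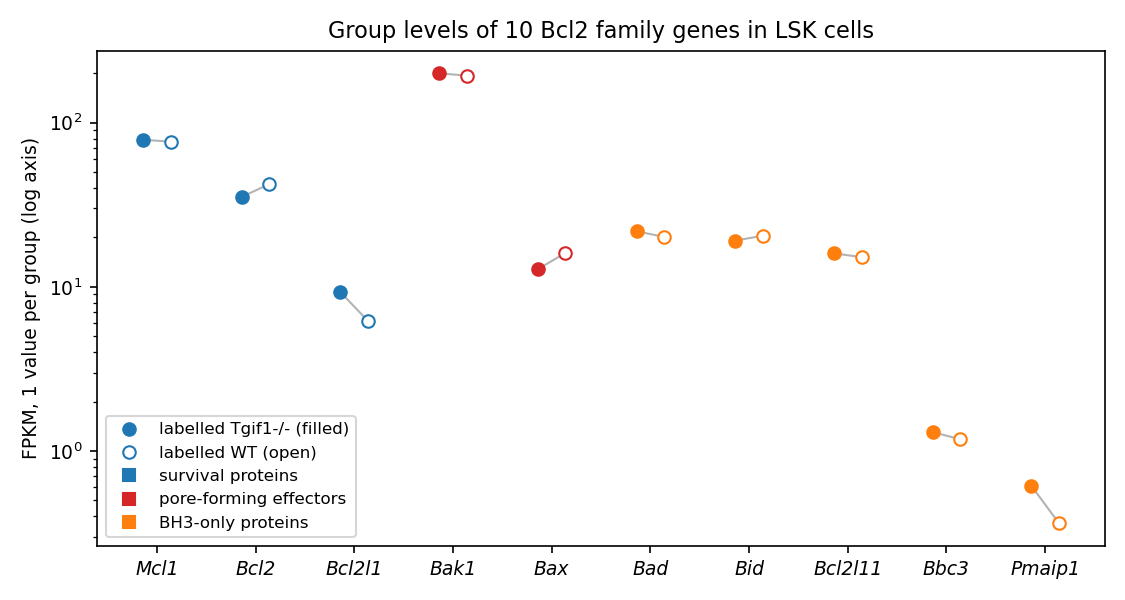
FPKM of the 10 genes on a log axis, with the group labelled Tgif1-/- as filled points left of the group labelled WT as open points, coloured by role; each point is the authors' single value for a group. Bak1 stands highest at 199.8 FPKM (labelled Tgif1-/-) and 193 FPKM (labelled WT), Pmaip1 lowest at 0.614 FPKM (labelled Tgif1-/-) and 0.364 FPKM (labelled WT), and within most genes the points lie close together beside the distances between genes.

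Among the survival genes, Mcl1 was the most abundant and Bcl2l1 showed the smallest p-value of the family. Mcl1 encodes a short-lived protein on which stem cells and many progenitors rely. It was at 78.7 FPKM in the cells labelled Tgif1-/- against 76.5 FPKM in the cells labelled WT. The log2 ratio was 0.04 (implied standard error 0.20), and the 95% interval ran from 0.79-fold to 1.34-fold, within a 1.5-fold change either way.

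Bcl2, the founding member of the family, was at 35.3 FPKM in the cells labelled Tgif1-/- against 42.2 FPKM in the cells labelled WT. The log2 ratio was -0.26 (implied standard error 0.19), with an interval from 0.64-fold to 1.08-fold, and p = 0.176 in the authors' deposited table. Among all tested genes 26.6% had a larger log2 ratio in size.

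Bcl2l1 encodes Bcl-xL, which protects erythroid precursors late in differentiation and sets the lifespan of platelets. It was at 9.28 FPKM in the cells labelled Tgif1-/- against 6.19 FPKM in the cells labelled WT, a 1.50-fold ratio. On the log2 scale this is 0.58 (implied standard error 0.21), and the interval ran from 1.13-fold to 1.99-fold. The unadjusted p was 0.00483 and the q 0.305 in the authors' deposited table, so the difference did not pass the threshold. It was the only member of the 9 with an unadjusted p at or under 0.05, where 5.41% of tested genes reached that level, 1.85% with the higher and 3.55% with the lower value in the cells labelled Tgif1-/-. Its p was number 170 in order among the 10730 tested genes, and 9.52% of them had a larger log2 ratio in size.

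The error behind that p was low for the level of the gene. Tested genes of like expression had a median implied standard error of 0.28, and the 0.21 of Bcl2l1 lay at percentile 12.5 of its expression bin. With the error raised to the median of the bin, the unadjusted p of Bcl2l1 was 0.0349 and the adjusted p 1.00. The values of Bcl2l1 and Bcl2 lay on opposite sides of no difference, so the make-up of the survival sum differed more than its size. Bcl2l1 made up 7.53% of the sum in the cells labelled Tgif1-/- and 4.95% in the cells labelled WT, and Bcl2 28.6% (labelled Tgif1-/-) against 33.8% (labelled WT). Mcl1 supplied the rest, 63.8% (labelled Tgif1-/-) against 61.2% (labelled WT). No test of these shares was made, since there is 1 value per group.

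**Figure D2:**
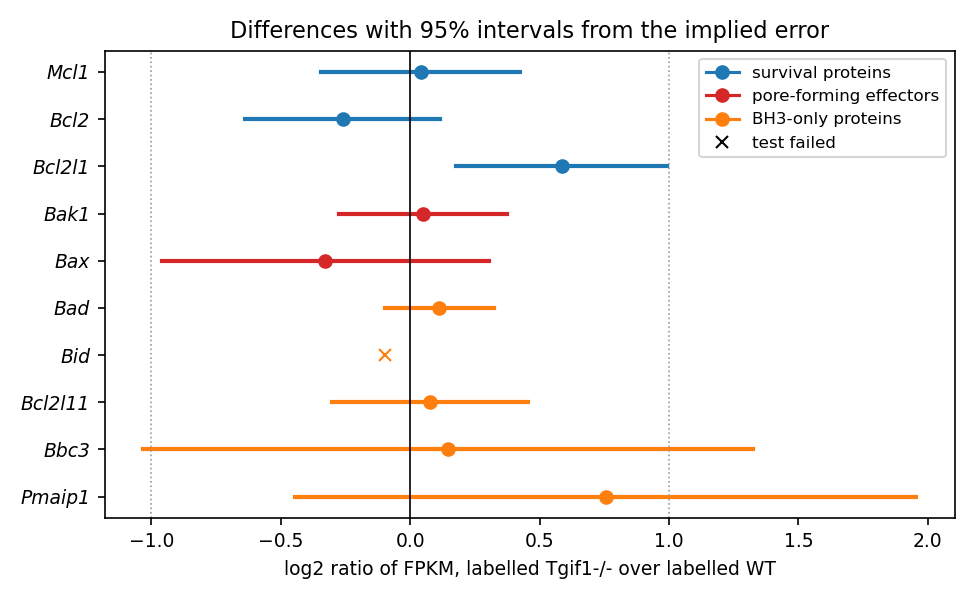
Log2 ratio of FPKM, group labelled Tgif1-/- over group labelled WT, with bars for the 95% interval from the implied standard error; dotted lines mark a 2-fold difference and the cross marks Bid, whose test failed. The bar of Bcl2l1 lies to the right of 0, from 0.18 to 0.99, and the bars of the other 8 tested genes cross 0.

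The effectors differed far more in level than between groups. Bak1, which sits in the outer mitochondrial membrane, was at 199.8 FPKM in the cells labelled Tgif1-/- against 193 FPKM in the cells labelled WT. Its mean level stood at percentile 96.9 of all genes of the table. The log2 ratio was 0.05 (implied standard error 0.17), and the interval from 0.83-fold to 1.30-fold stayed within 1.5-fold either way.

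Bax, which moves from the cytosol to the membrane on activation and is a classical p53 target, was at 12.8 FPKM in the cells labelled Tgif1-/- against 16.1 FPKM in the cells labelled WT. That is a log2 ratio of -0.33, the lowest of the 10 genes, with an implied standard error of 0.32 and p = 0.308 in the authors' deposited table. The interval from 0.51-fold to 1.23-fold leaves room for a fall of nearly 2-fold and for a small rise. The error was high for the level, at percentile 87.7 of its expression bin. Bak1 exceeded Bax 15.6-fold per length in the cells labelled Tgif1-/- and 12.0-fold in the cells labelled WT. The ratio of Bcl2 to Bax, often quoted as a survival index, was 2.75 in the cells labelled Tgif1-/- and 2.63 in the cells labelled WT, and both genes had the lower value in the cells labelled Tgif1-/-.

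The BH3-only genes fell into 3 genes at a middle level and 2 at low levels. Bad, which growth factor signalling keeps inactive by phosphorylation, was at 21.8 FPKM in the cells labelled Tgif1-/- against 20.1 FPKM in the cells labelled WT. Its log2 ratio was 0.11, and its implied standard error of 0.11 was the smallest of the family and lay at percentile 2.24 of its expression bin. The interval from 0.93-fold to 1.25-fold is accordingly the narrowest of the 9.

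Bcl2l11 encodes Bim, the main killer of blood cells deprived of cytokines, and was at 16.0 FPKM in the cells labelled Tgif1-/- against 15.2 FPKM in the cells labelled WT. On the log2 scale the ratio was 0.08 (implied standard error 0.19), and its interval from 0.81-fold to 1.37-fold stayed within 1.5-fold either way. Bid, which caspase-8 cleaves to carry death receptor signals to the mitochondrion, was at 19.1 FPKM in the cells labelled Tgif1-/- against 20.5 FPKM in the cells labelled WT. The authors' deposited table marks its test as failed, and the log2 ratio of -0.10 has neither error nor p-value.

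Bbc3 encodes Puma and Pmaip1 encodes Noxa, both transcribed by p53 after DNA damage, Noxa binding Mcl1 with preference. Bbc3 was at 1.30 FPKM in the cells labelled Tgif1-/- against 1.18 FPKM in the cells labelled WT, and its interval ran from 0.49-fold to 2.50-fold around a log2 ratio of 0.15 (implied standard error 0.60). Pmaip1 was at 0.614 FPKM in the cells labelled Tgif1-/- against 0.364 FPKM in the cells labelled WT. Its log2 ratio of 0.76 was the largest in size of the family, but its implied standard error was 0.61, p = 0.217 in the authors' deposited table, and the interval ran from 0.74-fold to 3.88-fold. With 1 FPKM added to each value the log2 ratio of Pmaip1 was 0.24. For Bbc3 and Pmaip1 a 2-fold difference lay inside the interval, so a difference of that size was not excluded at these levels. Bax, which p53 can also switch on, had the lower value in the cells labelled Tgif1-/-, while these 2 had the higher, and none of the 3 was called.

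Across the family, 7 of the 9 tested genes had the higher value in the cells labelled Tgif1-/- and 2 the lower, with a median log2 ratio of 0.08, against a median of -0.03 and 42.6% higher over all tested genes. Of the 10 genes, 7 differed by less than 1.25-fold either way, counting Bid, whose test failed. The exceptions, Bcl2l1, Bax and Pmaip1, were all tested. Over all tested genes, a set without failed tests, 79.4% differed by less than 1.25-fold. For 7 of the 9 tested genes the 95% interval lay wholly within 2-fold either way, and for 4 of them, Mcl1, Bak1, Bcl2l11 and Bad, within 1.5-fold. Over all tested genes 71.2% had an interval within 2-fold.

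**Figure D3:**
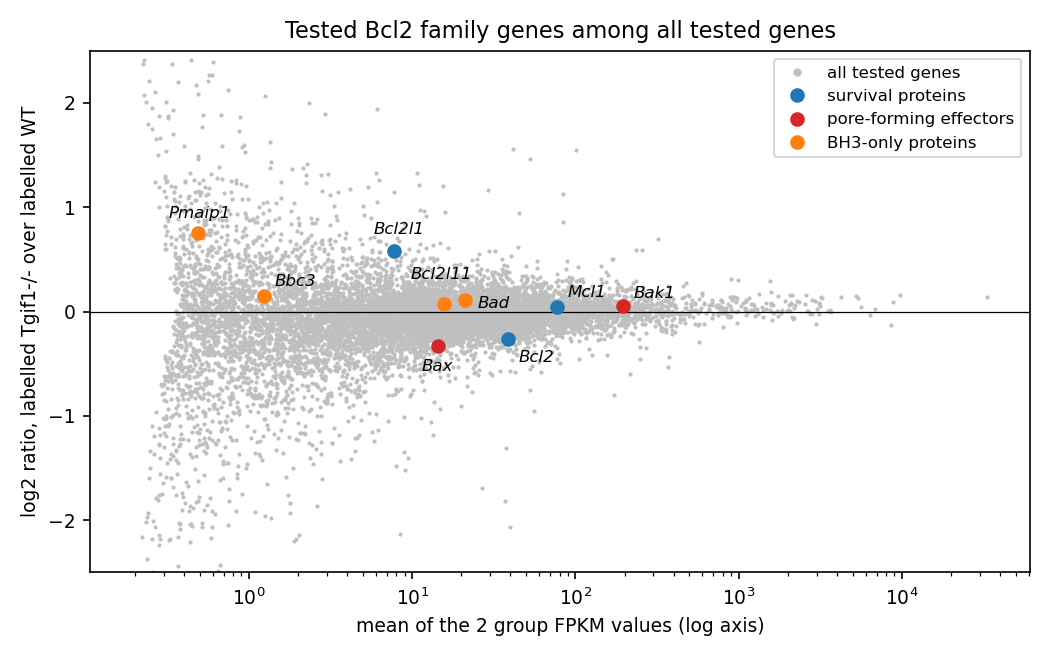
Log2 ratio, group labelled Tgif1-/- over group labelled WT, against the mean of both group FPKM values on a log axis, for all tested genes (grey) and the 9 tested family members (coloured by role); 56 tested genes beyond a log2 ratio of 2.5 in size are outside the axis. Bcl2l1, at 0.58, lies above most grey points at its level, while Pmaip1, at 0.76, lies within the wider cloud of low levels.

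Some members lie in spans or exons shared with neighbours. The table lists Bak1 under a span on chromosome 17 (27110112 to 27173323, in a mouse build that is not named) together with Ggnbp1, at 6.93 FPKM (labelled Tgif1-/-) against 6.02 FPKM (labelled WT), and Zbtb9, at 11.2 FPKM (labelled Tgif1-/-) against 9.50 FPKM (labelled WT). Bad shares its span with Gpr137, at 3.71 FPKM (labelled Tgif1-/-) against 3.22 FPKM (labelled WT), and Bid with its relative Bcl2l13, at 11.8 FPKM (labelled Tgif1-/-) against 12.6 FPKM (labelled WT). In GENCODE M21 exons on the opposite strand overlap those of Bak1 (Ggnbp1), Bad (Gpr137) and Bid (Bcl2l13), as does D630008O14Rik for Bcl2, and exons of Gm45808 overlap those of Bax on the same strand. The strandedness of the libraries is not stated, and reads there cannot be assigned with certainty. Both Bid and Bcl2l13 carry a failed test. Tests failed for 27.4% of genes with a shared span and for 10.8% of genes with a span of their own. Both shares count genes with too few reads to be tested. Of genes at 1 FPKM or more in a group, 24.2% had failed tests. Bak1 and Bad, also listed in shared spans, were tested. The part of a shared span in a failed test was not tested.

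None of the other relatives of the family was called. Of 17 relatives 7 were tested, 3 with the higher and 4 with the lower value in the cells labelled Tgif1-/-, none at an unadjusted p at or under 0.05, and the median log2 ratio was -0.05. The smallest p belonged to Bmf, a BH3-only gene released from the cytoskeleton under stress, at 2.50 FPKM in the cells labelled Tgif1-/- against 1.46 FPKM in the cells labelled WT (p = 0.286 in the authors' deposited table, implied standard error 0.73). Becn1, an autophagy protein with a BH3 helix, followed at 38.6 FPKM (labelled Tgif1-/-) against 42.9 FPKM (labelled WT) (p = 0.391 in the authors' deposited table). The germ cell survival gene Bcl2l10 and Bcl2a1c were listed at 0 in both groups, and Hrk, a BH3-only gene of neurons, was at 0.0309 FPKM (labelled Tgif1-/-) against 0.0355 FPKM (labelled WT), with too few reads to be tested. Bcl2a1a, Bcl2a1b and Bcl2a1d, near-identical copies of the survival gene A1 whose reads can be split wrongly, stood between 0.244 and 0.472 FPKM in both groups. The effector-like gene Bok was at 1.96 FPKM (labelled Tgif1-/-) against 2.15 FPKM (labelled WT).

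Downstream of the pores, 15 of 20 caspase and inhibitor genes were tested, 8 with the higher and 7 with the lower value in the cells labelled Tgif1-/-, none called and none at an unadjusted p at or under 0.05, with a median log2 ratio of 0.01. Birc3, an inhibitor of apoptosis and ubiquitin ligase, had the smallest p, at 68.4 FPKM in the cells labelled Tgif1-/- against 57.1 FPKM in the cells labelled WT (p = 0.157 in the authors' deposited table). Dffa, which holds the apoptotic nuclease inactive, followed at 23.2 FPKM (labelled Tgif1-/-) against 18.8 FPKM (labelled WT) (p = 0.263 in the authors' deposited table). The other 5 genes had failed tests and are given as levels, 2 with the higher and 3 with the lower value in the cells labelled Tgif1-/-. Birc5, counted among the inhibitors of apoptosis, was at 76.3 FPKM (labelled Tgif1-/-) against 64.5 FPKM (labelled WT), and the protease Htra2, which is released from mitochondria, at 37.0 FPKM (labelled Tgif1-/-) against 33.8 FPKM (labelled WT). The apoptosome scaffold Apaf1 was at 34.5 FPKM (labelled Tgif1-/-) against 36.1 FPKM (labelled WT), the initiator Casp8 at 83.1 FPKM (labelled Tgif1-/-) against 93.2 FPKM (labelled WT), and the caspase inhibitor Xiap at 38.8 FPKM (labelled Tgif1-/-) against 42.1 FPKM (labelled WT).

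Of 25 genes that control the members 17 were tested, 8 with the higher and 9 with the lower value in the cells labelled Tgif1-/-, again none at an unadjusted p at or under 0.05, with a median log2 ratio of -0.01. Bclaf1, a nuclear protein named for its binding to Bcl2, was at 152 FPKM in the cells labelled Tgif1-/- against 162 FPKM in the cells labelled WT (p = 0.134 in the authors' deposited table). Foxo3, which switches on Bcl2l11 and Bbc3 when growth factors fail, was at 79.3 FPKM (labelled Tgif1-/-) against 84.1 FPKM (labelled WT) (p = 0.178 in the authors' deposited table). Mdm2, the p53-induced brake on p53, was at 58.8 FPKM (labelled Tgif1-/-) against 59.4 FPKM (labelled WT). Tests failed for 7 genes of this list, 2 with the higher and 5 with the lower value in the cells labelled Tgif1-/-. Trp53, which encodes p53, was at 312 FPKM (labelled Tgif1-/-) against 342 FPKM (labelled WT), and Myb, a transcription factor of blood progenitors, at 247 FPKM (labelled Tgif1-/-) against 254 FPKM (labelled WT). The deubiquitinase Usp9x, which stabilises Mcl1, was at 136 FPKM (labelled Tgif1-/-) against 142 FPKM (labelled WT). The kinase Akt2, which can phosphorylate Bad, was at 79.0 FPKM (labelled Tgif1-/-) against 78.3 FPKM (labelled WT), and Dynll1, a dynein light chain that binds Bcl2l11 protein, at 389 FPKM (labelled Tgif1-/-) against 352 FPKM (labelled WT). The other two were under 20 FPKM. Of 10 partners at the mitochondrial membranes 6 were tested, 4 higher and 2 lower in value, none at that unadjusted level, with a median of 0.02. Slc25a4, an adenine nucleotide carrier, was at 78.4 FPKM (labelled Tgif1-/-) against 87.6 FPKM (labelled WT) (p = 0.391 in the authors' deposited table), and Mff, a receptor for the fission machinery, at 99.0 FPKM (labelled Tgif1-/-) against 104 FPKM (labelled WT) (p = 0.463 in the authors' deposited table). The other 4 partners had failed tests, 1 with the higher and 3 with the lower value in the cells labelled Tgif1-/-. Vdac2, a channel that binds Bak1, was at 269 FPKM (labelled Tgif1-/-) against 259 FPKM (labelled WT), and Mtch2, the mitochondrial receptor of cleaved Bid, at 59.0 FPKM (labelled Tgif1-/-) against 72.6 FPKM (labelled WT). The fusion protein Opa1 was at 34.1 FPKM (labelled Tgif1-/-) against 37.4 FPKM (labelled WT) and the fission protein Dnm1l at 29.6 FPKM (labelled Tgif1-/-) against 33.3 FPKM (labelled WT). In these 4 lists together, 45 of 72 genes were tested and 2 of the 45, Bmf and Bcl2a1d, differed by more than 1.25-fold. None of the 45 was called, where 0.662% of all tested genes were. None had an unadjusted p at or under 0.05, where 5.41% of all tested genes did.

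Of the lists of other blood cell markers, those of mast cells and basophils and of the B lineage held called genes, and the values of every list are set here beside those of Bcl2l1. Of 8 tested mast cell and basophil markers all 8 were higher in value and 4 were called higher in the cells labelled Tgif1-/- in the authors' deposited table, where 0.289% of tested genes were called higher. These were Cpa3, Mcpt8, Ms4a2 and Prss34. The 10 listed markers summed to 389 FPKM in the cells labelled Tgif1-/- against 157 FPKM in the cells labelled WT, with Tpsab1 at 0 in both groups. Of 9 tested B lineage markers 4 were called lower in the authors' deposited table, where 0.373% of tested genes were called lower, namely Blnk, Cd79a, Ebf1 and Igll1, and the 13 listed summed to 75.5 FPKM (labelled Tgif1-/-) against 155 FPKM (labelled WT). The 6 megakaryocyte markers summed to 223 FPKM (labelled Tgif1-/-) against 148 FPKM (labelled WT) with none of 5 tested called. Itga2b and Pf4 were higher and Ppbp lower at an unadjusted p at or under 0.05. Of all tested genes 1.85% were higher and 3.55% lower at that level. The 8 erythroid markers summed to 91.6 FPKM (labelled Tgif1-/-) against 90.3 FPKM (labelled WT) and the 10 stem and progenitor markers to 1611 FPKM (labelled Tgif1-/-) against 1646 FPKM (labelled WT), with none called and none at that unadjusted level in either list, and 6 of the stem and progenitor markers had failed tests. None of 8 tested neutrophil markers was called. All 8 were lower in value, as were 6157 of the 10730 tested genes, and their median log2 ratio was -0.91. Of the 8, 5 (Camp, Ltf, Mmp8, Ngp and S100a8) were lower at an unadjusted p at or under 0.05, as were 3.55% of tested genes. The 10 listed summed to 3365 FPKM (labelled Tgif1-/-) against 3734 FPKM (labelled WT), most of it from Mpo, whose test failed, and without Mpo to 309.9 FPKM (labelled Tgif1-/-) against 445.9 FPKM (labelled WT). The 7 T and NK cell markers summed to 323.2 FPKM (labelled Tgif1-/-) against 322.6 FPKM (labelled WT), nearly all of it from Nkg7, and without Nkg7 to 7.24 FPKM (labelled Tgif1-/-) against 9.39 FPKM (labelled WT). None of the 5 tested was called, and Cd3g was listed at 0 in the cells labelled Tgif1-/-. Klrd1 was lower at an unadjusted p at or under 0.05, as were 3.55% of tested genes. The part of these markers in the values of Bcl2l1, Bcl2 or any other member was not tested.

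**Figure D4:**
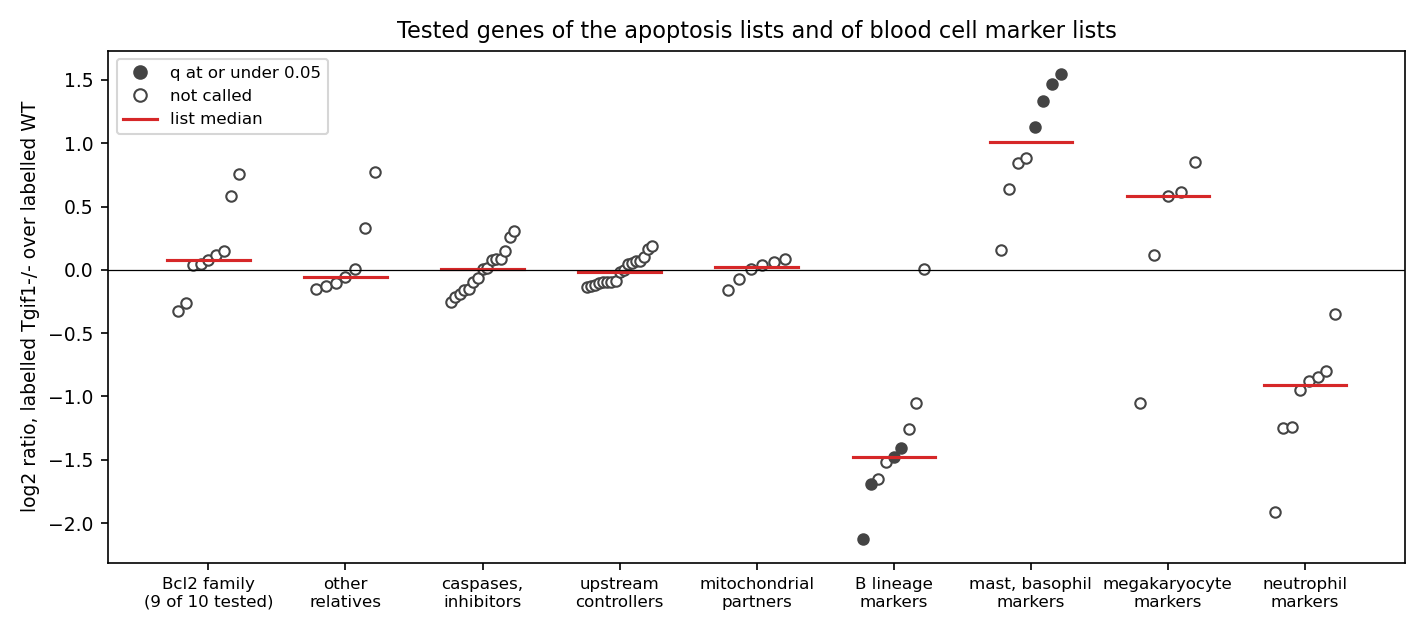
Log2 ratio, group labelled Tgif1-/- over group labelled WT, of each tested gene in the Bcl2 family, 4 apoptosis lists and 4 blood cell marker lists. The marker lists drawn are B lineage, mast cell and basophil, megakaryocyte and neutrophil. Not drawn are the stem and progenitor (median -0.04), erythroid (0.30) and T and NK cell (0.16) lists, which held no called gene. Filled points have a deposited q at or under 0.05 and red lines are list medians. The apoptosis lists centre on 0, between -0.05 and 0.02 in median, with no filled point, while the mast cell and basophil list has a median of 1.01 and the B lineage list one of -1.48.

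Promoter sequence was examined for the word CTGTCA, which extends the TGTCA core bound by Tgif1, on both strands of the RefSeq promoter windows (GRCm38.p6, 250 bases before to 50 after each start). Windows were matched for 9 of the 10 members, 15 windows in all. Pmaip1 was not examined. The word was in 3 of these 15 windows, 1 each of Bcl2l1, Bbc3 and Bad, and in 19.2% of all 32851 windows. Of the 15 windows 1, among the 3 of Bcl2l1, held 2 matches, and 2.33% of all windows held 2 or more. With 15 windows searched, this rate for a single window does not give how rare such a window is among the members. The stretches are shown because Bcl2l1 is the gene with the smallest p, and a bearing of the matches on its level was not tested. Capitals mark the word or its reverse complement.
Bcl2l1: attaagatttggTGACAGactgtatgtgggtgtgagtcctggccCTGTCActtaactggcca
Bbc3: gggggggggctgTGACAGcggaggggcggc
Bad: gggtcagatctgTGACAGttctcgtcgccc

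The Bcl2l1 stretch lies at chr2:152828596-152828657 on the minus strand, its matches from 156 to 119 bases before a RefSeq start. On the gene's strand this start lies after the BH3-coding stretch printed above, so a transcript from it would not contain that stretch. The other 2 windows of Bcl2l1 held no match. The Bbc3 stretch lies at chr7:16310383-16310412 and the Bad stretch at chr19:6942517-6942546, both on the plus strand, with their matches within 50 bases before a start. A match describes letters only, binding was not measured, and of the 3 genes none was called.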

How the data were processed

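RNA from LSK cells (about 200 ng per sample, per the labels' protocols) was sequenced in 6 samples. TopHat and Cuffdiff are named without versions in the submitters' processing notes, which also name hg19, a human build, although the identifiers are mouse. Per the file headers the table gives the authors' FPKM value for each group, a log2 fold change (WT on top, turned round here), a test statistic score, and the deposited p-value and q-value. The depth is unknown. The table marks 10730 genes as tested, 3143 as failed and 8455 as having too few reads.

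Calls needed a completed test and a deposited q of 0.05 or less. The deposited q-values equalled a Benjamini-Hochberg adjustment of the p-values over all 10730 tested genes within 0.001, and the p-values the two-sided normal value of the statistic for all 10683 genes with a finite ratio, within 0.001. This is why the log2 ratio over the statistic was read as a standard error of the authors' model. The members and gene lists were chosen with earlier results of these data known. All 10 members are named. From each apoptosis list the called genes are named, otherwise those with an unadjusted p at or under 0.05, otherwise the 2 with the smallest p; genes listed at 0, A1 copies, Hrk, Bok, Mdm2, shared-span neighbours and marker genes were added after their values were seen. Failed genes of these lists at 20 FPKM or more are given as levels. Python 3.11.15, pandas 2.3.3, numpy 2.4.6, scipy 1.17.1 and matplotlib 3.10.9 were used. The adjustments were also run on data simulated from the implied errors, which cannot check those errors against the spread between samples.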

Additional observations from a re-analysis of the deposited data

How the results depend on the processing

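At an unadjusted p at or under 0.05, reached by 5.41% of all tested genes, the count of members was 1 (Bcl2l1) in place of 0. It was 0 at q thresholds of 0.01 and 0.1, when genes under 1 FPKM in both groups were left out (smallest adjusted p 0.294), and with each implied error raised to the median of its one of 20 expression bins (1.00). The 4 apoptosis lists gave 0 calls in each of these 5 alternatives, including at an unadjusted p at or under 0.05 (smallest p 0.134). Pseudocounts of 0.1 and 1 and subtraction of the tested genes' median log2 ratio turned no direction of the 10 log2 ratios and moved each by less than its implied standard error (for Bid, less than the median error of tested genes); the largest shift, 0.51, was that of Pmaip1 with a pseudocount of 1. Leaving out single samples was not run, because the table holds 1 value per group. No paired analysis was possible because the columns carry no replicate numbers. Low expression limits Bbc3 and Pmaip1, whose intervals include 2-fold differences.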
